A study of Homo sapiens with 9 samples.

Results

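PANC-1 cells that received a miR-520f mimic were compared with PANC-1 cells that received a mimic of negative control sequence, so that the lipid reagent, the dose of duplex RNA and the time were the same on both sides and the sequence of the duplex differed. PANC-1 is an established epithelial line from a human pancreatic carcinoma. The comparison used 6 of the series' 9 arrays, 3 labelled as miR-520f and 3 as negative control, each from cells given 20 nM of a mirVana mimic with Lipofectamine RNAiMAX and collected for total RNA at 72 h. The other 3 arrays came from cells given the reagent alone, and their levels are shown as a reference. Genes were taken from the 14432 of 22011 probe sets that carry a single gene symbol, with the brightest probe set over all 9 arrays for a gene that had several, which gave 14232 genes. All groups share the parental line, with no allele or clone added. Replicates are called biological in the labels, but nothing says that they were separate cultures, and the p-values therefore cover only the spread of these arrays, which may be technical.

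A microRNA is a short RNA that guides the silencing complex to messenger RNAs. The seed, bases 2 to 8 from its 5′ end, pairs with the message, usually in the 3′ untranslated region, and the paired message is translated less and decays faster. A mimic supplies such a guide from outside. A difference in level does not tell a message paired by the guide from one that changed as a later consequence. miR-520f belongs to the large primate microRNA cluster of the placenta, and microRNAs with closely related seeds are known from embryonic stem cells, where they are linked to cell cycle progression and to an epithelial state.

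The sequences below show why miR-520f is set beside the miR-302, miR-372 and miR-373 group, and where its seed differs. Capitals mark the seed of each mature RNA. The labels give neither the arm nor the sequence of the mimic, so both arms of hsa-miR-520f are listed. They are RefSeq entries on GRCh38.p14, with the 3p arm at chr19:53682213-53682234 and the 5p arm at chr19:53682173-53682194, both on the plus strand.
hsa-miR-520f-3p: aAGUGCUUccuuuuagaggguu
hsa-miR-520f-5p: cCUCUAAAgggaagcgcuuucu
hsa-miR-520c-3p: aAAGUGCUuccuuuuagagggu
hsa-miR-302a-3p: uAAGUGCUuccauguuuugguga
hsa-miR-372-3p: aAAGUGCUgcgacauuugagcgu
hsa-miR-373-3p: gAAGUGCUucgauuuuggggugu
hsa-miR-17-5p: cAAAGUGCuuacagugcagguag
The 3p arm of miR-520f had the seed AGUGCUU. Its bases 1 to 7 were the seed, AAGUGCU, of 12 other mature RNAs in the table, among them miR-302a-3p, miR-372-3p, miR-373-3p and miR-520c-3p. In 11 of these 12 the letters AGUGCUU lay 1 base further on, from base 3, and miR-372-3p was the exception. A further 8 RNAs, miR-17-5p among them, were shifted by 2 bases. Matches of the seed in messages were not analysed here.

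The array table held log2 intensities after robust multi-array averaging (RMA), a method that gives the arrays a common distribution before it summarises the probes of a probe set. The array medians ran from 4.22 to 4.336. Precision is limited by having 3 arrays in a group. Replicate 1 of the negative control stood farther from its group than any other array: its genes deviated from the group mean by 0.169 (root mean square), and those of the other 8 arrays by 0.0698 to 0.131. The epithelial keratin genes KRT8 and KRT18 were bright on every array, at 11.3 to 11.8 and 8.66 to 9.35, as was the intermediate filament gene VIM at 11.8 to 12.2. The duct keratin KRT7 was dim, at 3.43 to 3.56. Of 15 acinar and endocrine pancreas genes, 14 had a mean under 4. Of 20 immune, endothelial and fibroblast genes 14 did. The summed linear intensity of the 20 was 685.2 to 829.6 with the control mimic and 664.2 to 737 with miR-520f. With the reagent alone it was 1030 to 1190. The limma comparison of the control mimic with the reagent alone called 2174 genes, 15.3% of those tested.

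The miR-520f mimic changed genes in both directions, with more small rises than small falls and more large falls than large rises. A log2 difference below is always miR-520f minus negative control, and called genes are those with a limma p under 0.05 after Benjamini-Hochberg adjustment. Of 14232 genes 3996 were called (28.1%), 2196 higher (15.4%) and 1800 lower (12.6%) with miR-520f. At a fold of at least 2 as well, 236 genes were higher (1.66%) and 281 were lower (1.97%). At a log2 difference of at least 1.5 the counts were 49 and 76, and at 2 or more they were 10 and 23, so that falls made up 45% of all calls and 69.7% of the largest. The median over all genes was -0.03, with quartiles of -0.14 and 0.14. All 3 miR-520f arrays lay above all 3 negative control arrays in 2833 genes (19.9%) and below them in 2775 (19.5%). Without replicate 1 of the negative control limma called 3871 genes.

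Calls depended on the level of the gene. Among the 4744 dimmest genes, with a mean of 2.38 to 3.54, 0.97% were called higher and 1.52% lower. Among the 4744 brightest, with a mean of 5.95 to 13.2, 27% were called higher and 21.1% lower, and this group held 140 of the rises and 190 of the falls of at least 2-fold. RMA compresses differences between dim probe sets, and a list of dim genes therefore has less room for a call than a list of bright ones. In bulk RNA, fewer cells with a message and less message per cell cannot be told apart.

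**Figure D1:**
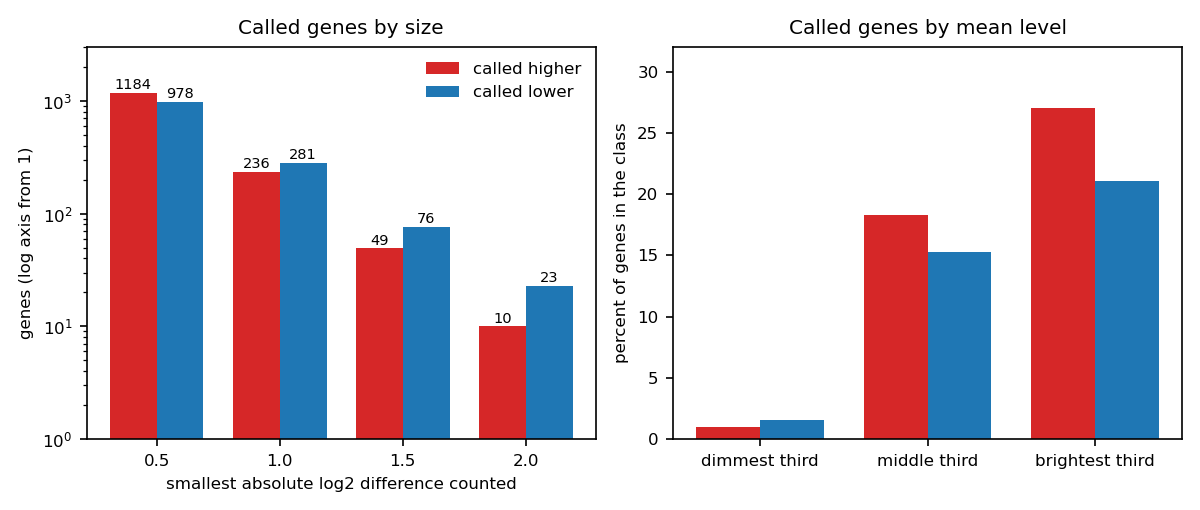
Left, genes called higher (red) or lower (blue) with miR-520f than with the negative control, by the smallest absolute log2 difference counted, on a log axis. Right, the percent of genes called in 3 classes of 4744 genes by mean level; rises outnumber falls up to a difference of 0.5 and falls outnumber rises from 1 upward, and both shares are highest among bright genes.

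**Figure D2:**
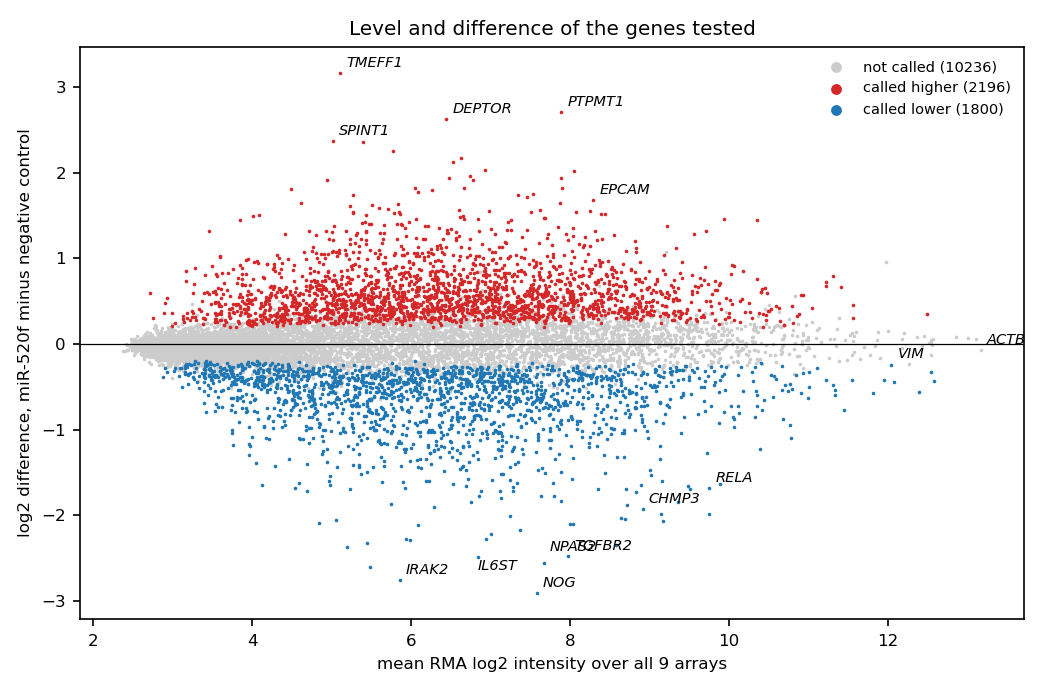
Log2 difference (miR-520f minus negative control) against the mean RMA log2 intensity over all 9 arrays, 1 point per gene, in red for the 2196 genes called higher, in blue for the 1800 called lower and in grey for the rest. The largest falls, NOG and IRAK2, and the largest rises, TMEFF1 and PTPMT1, stand apart from the cloud, and the bright actin gene ACTB lies near 0.

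The largest fall was that of NOG, which encodes a secreted antagonist of bone morphogenetic proteins. NOG read 8.09, 8.71 and 8.69 on the negative control arrays and 5.66, 5.66 and 5.46 with miR-520f. The lowest control array was thus well above the highest miR-520f array, and the log2 difference of -2.91 (SE 0.15, limma adjusted p = 3.01e-07) was a 7.50-fold fall. IRAK2, a kinase that relays signals from interleukin-1 and Toll-like receptors, read 7.16, 6.92 and 6.82 against 4.16, 4.29 and 4.17, a difference of -2.76 (SE 0.13, limma adjusted p = 1.52e-07). The miR-520f arrays of IRAK2 lay below all 6 others.

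CCND2 encodes cyclin D2, which drives the G1 phase with its kinases. It read 6.54, 7.20 and 7.03 on the negative control arrays and 4.28, 4.54 and 4.15 with miR-520f (log2 difference -2.60). The reagent-only arrays of CCND2, at 5.52, 5.21 and 4.91, lay between these groups, 1.71 below the control mimic on average. TGFBR2, which encodes the ligand-binding type II TGF-beta receptor, had the same order of groups, with 8.13, 8.10 and 8.02 on the reagent-only arrays, 9.18, 9.24 and 9.06 on the control mimic arrays and 6.69, 6.56 and 6.78 with miR-520f (log2 difference -2.48, SE 0.08). TENT5C, a noncanonical poly(A) polymerase, read 6.68, 6.33 and 6.09 against a range of 3.98 to 4.02, with 5.44, 5.13 and 5.11 for the reagent alone. In each of these 3 genes the reagent-only arrays lay between the mimic groups, which the choice of genes kept apart. Part of the distance between the mimics thus lay above the reagent-only level.

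In other large falls the control mimic and the reagent alone lay close together. IL6ST, the signalling chain shared by the interleukin-6 cytokines, read 8.66, 8.49 and 8.63 on the negative control arrays and 6.02, 5.79 and 6.29 with miR-520f (log2 difference -2.56), beside 8.39, 8.29 and 8.48 for the reagent alone. HPRT1, the purine salvage enzyme, went from 7.56, 7.59 and 8.09 to 5.53, 5.13 and 5.13 (log2 difference -2.48), beside 7.54, 7.54 and 7.43. NPAS2, a circadian transcription factor that pairs with BMAL1, went from 9.31, 9.41 and 9.14 to 6.96, 6.95 and 6.93 (log2 difference -2.34), beside 9.52, 9.55 and 9.45. The miR-520f arrays of these genes lay below all 6 others.

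The rest of the 15 largest falls were of 2.11 to 2.32 on the log2 scale. They were EPDR1, the endosomal adaptor APPL2, the actin-binding protein ABLIM3, TMEM14A, the Rab27 effector EXPH5, the phosphoinositide phosphatase OCRL and the mitotic kinase PBK. PBK, at -2.107, closed this group and the ubiquitin ligase gene AREL1, at -2.105, followed it. The order of PBK and AREL1 is below their error, since the SEs were 0.14 and 0.11.

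The largest rise was that of TMEFF1, a transmembrane protein with follistatin-like domains. TMEFF1 read 3.49, 3.61 and 3.51 on the negative control arrays and 6.73, 6.75 and 6.63 with miR-520f, a log2 difference of 3.17 (SE 0.09, limma adjusted p = 3.12e-08) or 8.98-fold. The reagent-only arrays, at 4.89, 5.11 and 5.24, lay between them. PTPMT1, a mitochondrial phosphatase of cardiolipin synthesis, read 5.96, 6.21 and 6.10 with the control mimic and 8.72, 8.94 and 8.73 with miR-520f (log2 difference 2.71, SE 0.09), but 8.88, 8.71 and 8.74 with the reagent alone. The miR-520f arrays of PTPMT1 overlapped the reagent-only arrays, and the control mimic arrays stood apart from both, 2.69 lower than the reagent alone on the log2 scale.

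DEPTOR, an inhibitor of the mTOR kinase, showed another order. It read 5.43, 5.68 and 5.30 with the control mimic and 8.17, 7.97 and 8.16 with miR-520f (log2 difference 2.63), and its reagent-only arrays, at 5.94, 5.61 and 5.68, overlapped the control mimic. SPINT1, the inhibitor of the epithelial protease matriptase, went from 4.04, 4.04 and 4.24 to 6.54, 6.65 and 6.23 (log2 difference 2.37), beside 4.42, 4.43 and 4.55. The orphan nuclear receptor NR6A1, known from germ cells and early embryos, went from 4.44, 4.95 and 4.79 to 7.05, 7.18 and 7.03 (log2 difference 2.36), beside 4.53, 4.44 and 4.09. The interleukin-6 receptor IL6R went from 4.52, 4.55 and 4.30 to 6.36, 6.27 and 6.51 (log2 difference 1.92), beside 3.98 to 4.01. For DEPTOR, SPINT1, NR6A1 and IL6R the miR-520f arrays lay above all 6 others. The Mediator kinase CDK8 closed the 15 largest rises at 1.91, with the interferon-induced gene IFIT1 next at 1.83.

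Among the other large rises were the phosphatase PTPN13 (log2 difference 2.25), the lipid droplet protein HILPDA (2.18), the F-box protein FBXL12 (2.13), the splicing factor CWC15 (2.04) and the cohesin subunit STAG2 (2.02). BLMH (1.96), CMBL (1.94) and FAM32A (1.93) followed. Their control mimic arrays lay below the reagent-only arrays, as in CMBL, which read 6.78, 6.90 and 6.78 with the reagent alone, 5.56, 5.36 and 5.08 with the control mimic and 7.37, 7.11 and 7.34 with miR-520f. All 30 of the largest changes kept their call and direction under each of 17 other settings and left-out arrays. They were picked from these same arrays as large, called and without overlap, so this stability is not separate evidence for them.

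**Figure D3:**
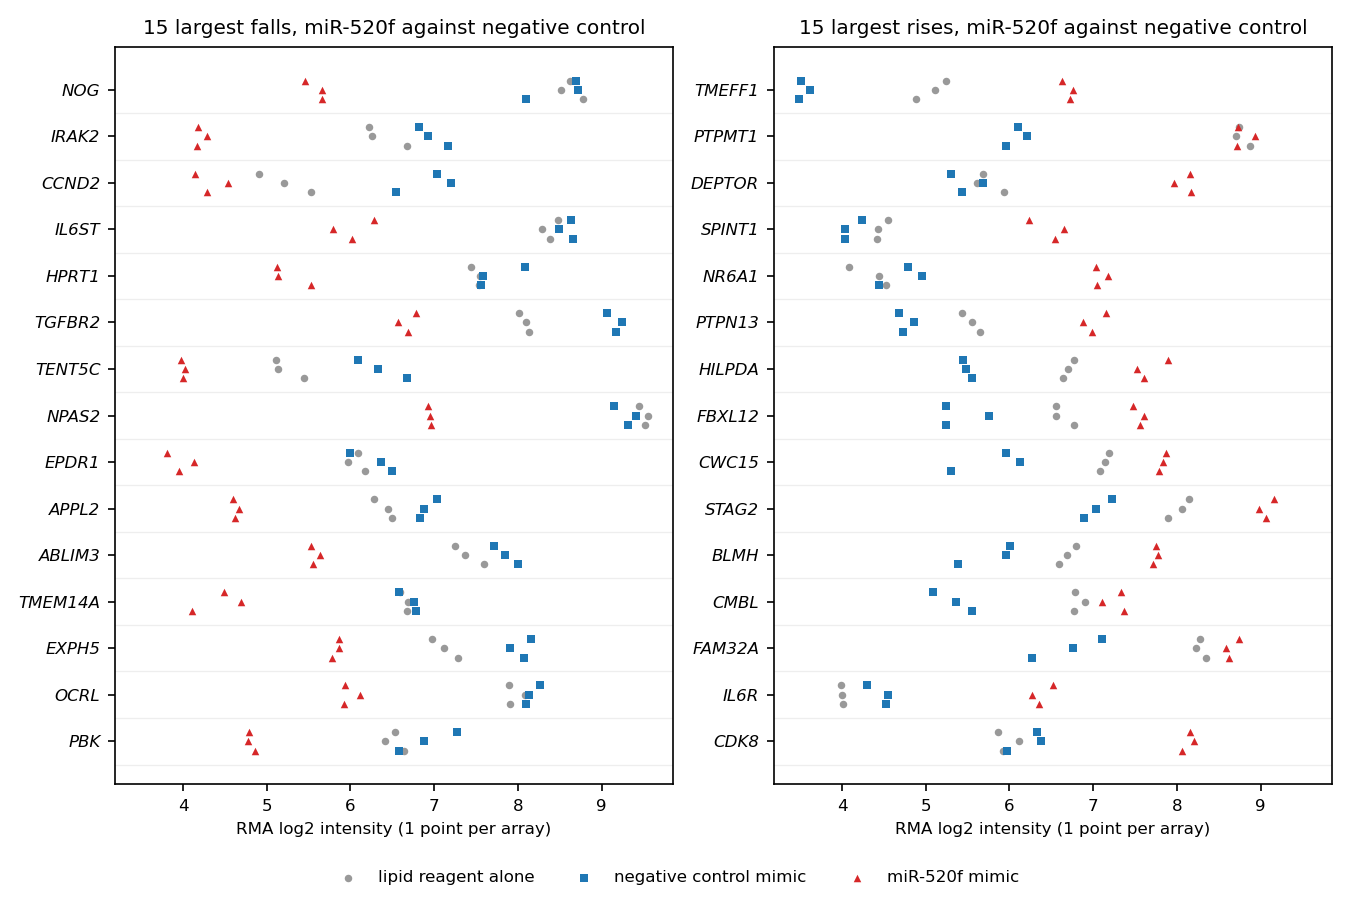
RMA log2 intensity of the 15 largest falls (left) and the 15 largest rises (right), 1 point per array, for the reagent alone (grey circles), the negative control mimic (blue squares) and miR-520f (red triangles). Only genes whose red and blue points do not overlap were picked. The grey points lie near the blue ones for NPAS2 and DEPTOR, between blue and red for CCND2 and TMEFF1, and among the red ones for PTPMT1.

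The reference arrays differ in this way in further genes, and the values of the 3 groups are given side by side since both differences use the same control mimic arrays. The receptor tyrosine kinase gene MET read 6.30, 6.29 and 5.96 with the control mimic and 7.94, 7.70 and 8.06 with miR-520f (log2 difference 1.72), where the reagent alone gave 8.32, 8.27 and 8.23. IFIT1 read 5.23, 5.62 and 5.24 against 7.18, 7.28 and 7.11, where the reagent alone gave 7.20, 7.65 and 7.45. The MET and IFIT1 rises were therefore rises from a control mimic level that was below the reagent-only level. DICER1, the enzyme that cuts microRNA precursors, fell by 1.04 from 9.20, 9.48 and 9.69 to 8.40, 8.38 and 8.49, which was above the reagent-only readings of 8.08, 8.26 and 8.09. The MAP kinase phosphatase gene DUSP5 fell by 1.22 from 7.88, 8.06 and 7.75 to 6.77, 6.61 and 6.66, within the reagent-only range of 6.41 to 7.01.

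Genes were also grouped by function in 37 lists and 20 families, and each list is described by its counts and its median beside the shares of 15.4% higher and 12.6% lower over all genes tested. The list that held the largest share of falls was that of targets reported for microRNAs of the miR-302, miR-372, miR-373 and miR-520 group. Of its 22 measured members 13 fell (59.1%) and 4 rose, with a median of -0.605. CCND2, TGFBR2, the metalloprotease ADAM9 (log2 difference -2.10) and the NF-kappaB subunit RELA (-1.68) fell most. ADAM9 read 8.81, 8.90 and 8.85 with the control mimic and 6.42, 6.995 and 6.83 with miR-520f. RELA read 10.31, 10.41 and 10.21 against 8.59, 8.85 and 8.44, without overlap. The hyaluronan receptor CD44 (-1.29), RHOC (-1.09), cyclin D1 (CCND1, -0.92), DAZAP2 (-0.87), DKK1 (-0.84), CDKN1A (-0.83), SMARCC2 (-0.67), KLF13 (-0.54) and VEGFA (-0.34) also fell. The members that rose were SOX4 (0.67), WEE1 (0.53), NFIB (0.46) and TRPS1 (0.27). The study of this mimic is known for ADAM9 and TGFBR2, so their place on the list is not independent evidence of its direction. Of the members 19 were among the brightest 4744 genes, of which 21.1% were called lower.

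**Figure D4:**
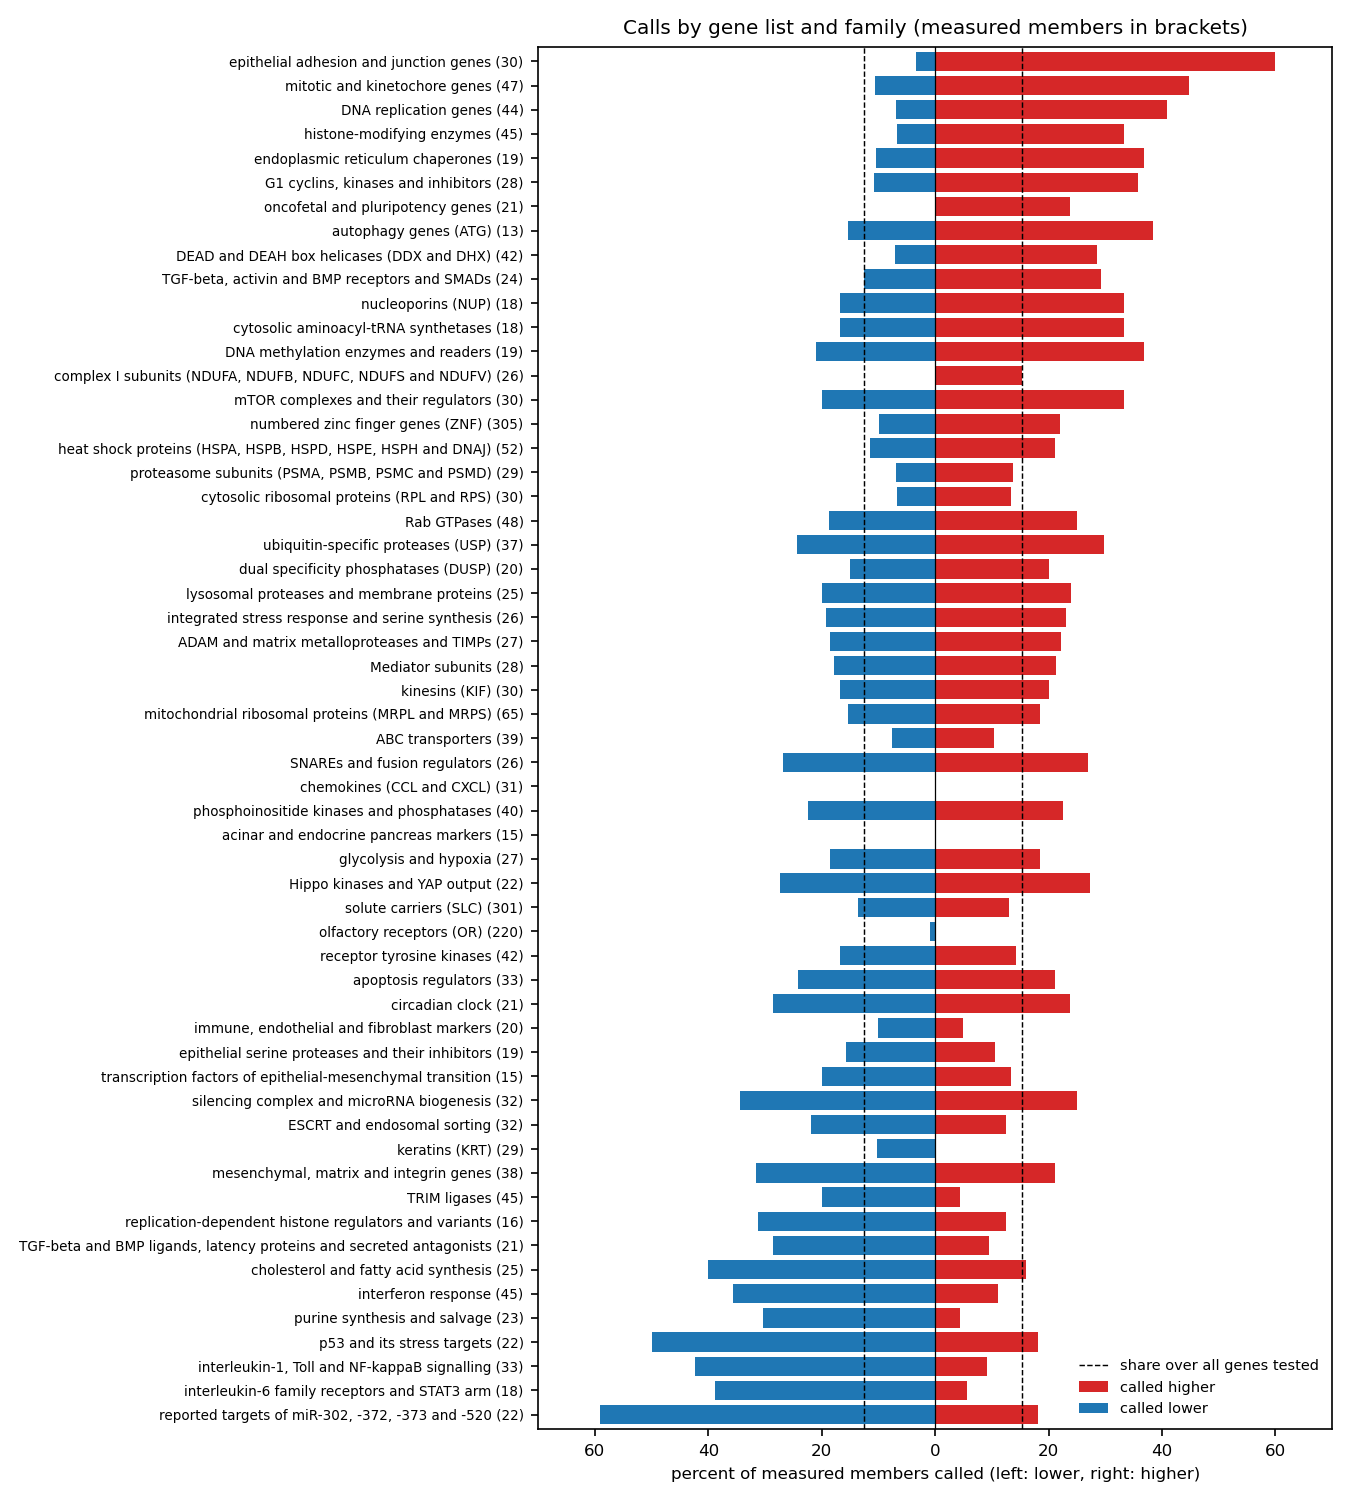
Percent of the measured members of each list or family called higher (red, right) or lower (blue, left) with miR-520f than with the negative control, with the number measured in brackets; dashed lines mark the shares over all 14232 genes. The epithelial adhesion list has the longest bar to the right and the list of reported targets the longest to the left, and olfactory receptors and chemokines, which are dim, show few calls or none.

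In the TGF-beta and BMP pathway the fall of TGFBR2 stood beside rises of other receptors. Of 24 measured receptors and SMADs 7 rose and 3 fell, with a median of 0.03. The co-receptor TGFBR3, also called betaglycan, read 3.86, 3.66 and 3.55 with the control mimic and 5.30, 4.99 and 5.31 with miR-520f (log2 difference 1.51). The activin receptors ACVR2B (0.96) and ACVR1B (0.76) rose, as did the transcriptional repressors SKI (0.69) and SKIL (0.50), SMAD5 (0.51) and SMAD7 (0.28), while ACVR1 (-0.51) and SMAD2 (-0.37) fell. Among 21 ligands, latency proteins and antagonists 6 fell and 2 rose. Beside NOG these were the latent TGF-beta binding protein LTBP2 (-1.77), BMP6 (-1.70), LTBP4 (-0.46), the activin subunit INHBB (-0.45) and THBS1 (-0.23), against TGFB3 (0.82) and TGFB2 (0.35). BMP6 read 9.54, 9.38 and 9.28 against 7.66, 7.67 and 7.78, so that a BMP ligand and the antagonist NOG fell together.

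The receptors for interleukin-6 moved in opposite directions. Of 18 measured genes of the interleukin-6 family and the STAT3 arm 7 fell (38.9%) and IL6R alone rose. After IL6ST the falls were of the ligand LIF (-1.20), the feedback inhibitor SOCS3 (-1.18), PIAS3 (-0.60), the kinase JAK1 (-0.59), STAT3 (-0.50) and the oncostatin M receptor OSMR (-0.47). SOCS3 read 6.59, 6.79 and 6.84 with the control mimic and 5.55, 5.60 and 5.53 with miR-520f. Both counts, 7 falls and 1 rise, were the same under every alternative and left-out array.

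Of 33 interleukin-1, Toll and NF-kappaB genes 14 fell (42.4%) and 3 rose. IRAK2 and RELA led, and the adaptor MYD88 (-0.64), the inhibitor of NF-kappaB kinase genes CHUK (-0.64) and IKBKB (-0.34), TNIP1 (-0.64), TRAF6 (-0.40), IRAK3 (-0.42), IRAK1 (-0.33) and the receptor gene TLR6 (-0.79) fell as well. The further falls of RELB, NFKB2, IL1RAP and TNFAIP3 were of 0.25 to 0.33. The rises were of REL (0.75), MAP3K7 (0.52) and TAB1 (0.42). The number of falls was 8 without replicate 2 of the negative control or replicate 3 of miR-520f, 9 without replicate 1 of miR-520f or with an unmoderated fit, and 11 without replicate 1 of the negative control.

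Epithelial adhesion and junction genes rose together, and no other list had so large a share of rises. Of 30 measured members 18 rose (60%) and 1 fell, with a median of 0.397, and without replicate 1 of the negative control 17 rose and 1 fell. Over the 17 alternative settings and left-out arrays 14 to 18 rose and 0 to 2 fell. EPCAM, an adhesion molecule of simple epithelia, read 7.82, 7.70 and 7.56 with the control mimic and 9.40, 9.16 and 9.56 with miR-520f (log2 difference 1.68, SE 0.11). The desmosomal cadherin DSC2 went from 6.31, 6.59 and 6.85 to 7.96, 7.77 and 7.98 (1.32), and E-cadherin, CDH1, from 5.39, 5.53 and 5.47 to 6.67, 6.56 and 6.60 (1.15, SE 0.07). The groups of these genes did not overlap, and the reagent-only arrays of CDH1, at 5.59, 5.59 and 5.43, overlapped the control mimic.

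The rises included tight junction, desmosome and polarity genes. Among claudins, which seal tight junctions, CLDN4 rose by 1.23, CLDN1 by 1.02, CLDN7 by 0.45 and CLDN3 by 0.43. Among desmosome genes DSG2 rose by 0.94, JUP by 0.70, PKP3 by 0.46 and PKP2 by 0.41, and DSP, at 0.11, was not called. The polarity genes PARD6B (0.77), PATJ (0.72) and PARD3 (0.65) rose, as did the transcription factor GRHL3 (0.63), P-cadherin (CDH3, 0.39), cingulin (CGN, 0.35) and the splicing factor ESRP1 (0.26). CD24 fell by 0.57. The 11 members not called were TJP1, DSP, MARVELD3, TJP3, GRHL1, OVOL1, CRB3, OVOL2, ELF3, GRHL2 and RAB25, with differences from -0.23 to 0.25. The last 6 of these were dim, with a mean level of 2.72 to 3.43. Dim members were also among the rises, namely ESRP1 (mean level 3.15), CDH3 (3.81), CGN (3.84) and PKP2 (3.90), all under 4.

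**Figure D5:**
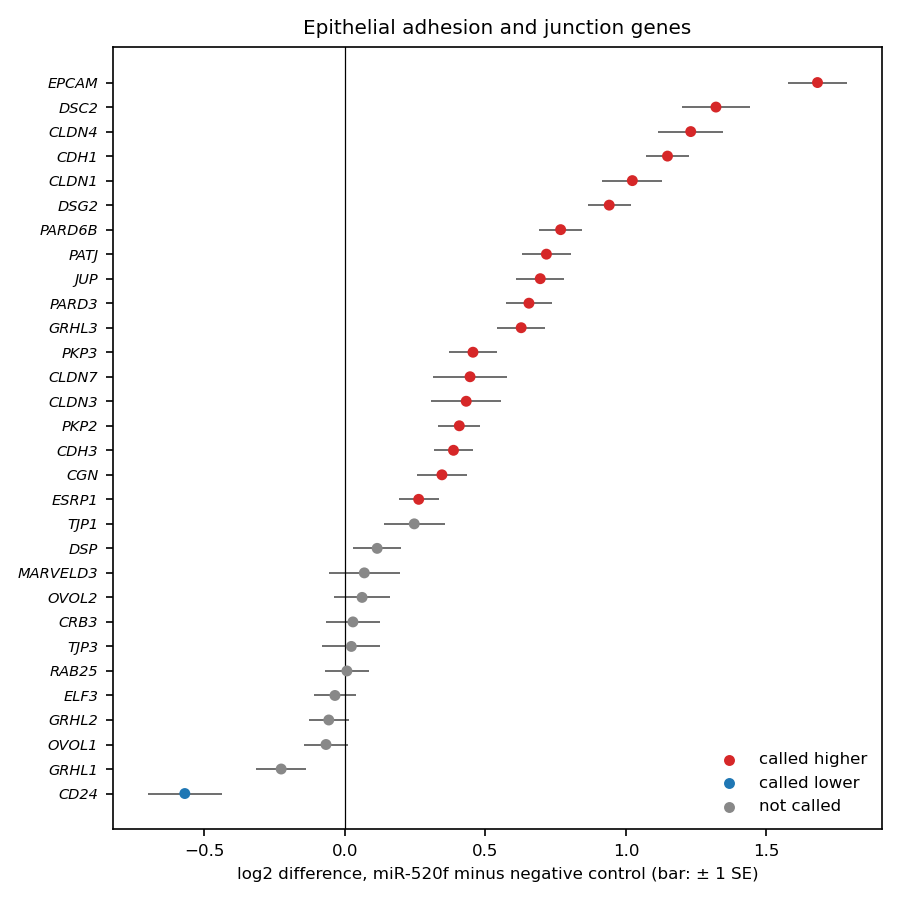
Log2 difference (miR-520f minus negative control, bar ± 1 SE from limma) of the 30 measured epithelial adhesion and junction genes, in red for the 18 called higher, in blue for CD24, called lower, and in grey for the 11 not called. EPCAM is at the top with 1.68 and CD24 at the bottom with -0.57.

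The keratin family is dim, with a median level of 3.19 and 3 of 29 members among the brightest 4744 genes, so it has little room for a call. Of 29 measured, limma called 0 higher, with 1 higher at an unadjusted p under 0.05 and 0 by the unmoderated fit, and 3 lower, of which KRT19 fell by 0.68, from 8.87, 8.85 and 8.78 to 8.12, 8.24 and 8.11. KRT80 (-0.53) and KRT15 (-0.22) fell from lower levels, and KRT15 lost its call (limma adjusted p of 0.0553 to 0.167) on leaving out any array except replicate 2 of the negative control. KRT8, at 0.05, was not called, nor was KRT18, at 0.28 (limma adjusted p = 0.0569), which passed without replicate 1 of the negative control (0.34) or replicate 3 of miR-520f (0.35). Among 19 epithelial serine proteases and inhibitors SPINT1 and TFPI2 (0.46) rose, the latter with overlapping groups and a limma adjusted p of 0.055 to 0.113 without replicate 2 or 3 of the negative control or replicate 1 or 3 of miR-520f, and TMPRSS2 (-0.64), the urokinase gene PLAU (-0.62) and its receptor PLAUR (-0.40) fell.

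Among 15 transcription factors of epithelial-mesenchymal transition 3 fell and 2 rose. ZEB1, a repressor of E-cadherin, read 8.07, 8.12 and 8.17 with the control mimic and 6.97, 7.09 and 6.93 with miR-520f (log2 difference -1.12). RUNX2 (-1.16) and ETS1 (-0.99) fell, and TCF4 (1.04) and SOX4 (0.67) rose. The ZEB1 groups did not overlap, and its reagent-only arrays, at 7.90, 8.25 and 8.10, overlapped the control mimic.

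Mesenchymal, matrix and integrin genes were divided, with 12 falls and 8 rises among 38. The receptor tyrosine kinase AXL read 9.49, 9.68 and 9.58 with the control mimic and 7.61, 7.59 and 7.41 with miR-520f (log2 difference -2.04). TGFBI (-1.59), CD44 (-1.29) and the integrins ITGB3 (-1.18), ITGA2 (-0.98), ITGB5 (-0.73) and ITGA3 (-0.48) fell. The 8 rises were of the laminins LAMB1 (0.83) and LAMC1 (0.29), the collagens COL5A2 (0.64), COL6A1 (0.36) and COL6A2 (0.30), SPARC (0.55), the collagen-modifying enzyme P4HA2 (0.37) and the integrin ITGA5 (0.37). The collagen COL1A1, at 0.20, was not called. VIM fell by 0.24 (limma adjusted p = 0.0326). That call was lost after a further quantile normalization (-0.09, limma adjusted p = 0.424) and after centring the arrays. It was also lost without replicate 2 of the reagent alone, replicate 3 of the negative control, or replicate 1 or 2 of miR-520f (limma adjusted p of 0.0549 to 0.11). Among 27 ADAMs, matrix metalloproteases and TIMPs 5 fell, led by ADAM9 and TIMP1 (-1.10), and 6 rose, led by MMP14 (1.03), the protease inhibitor RECK (0.81) and MMP16 (0.78).

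ZEB1 binds E-boxes with the letters CAGGTG or, on the other strand, CACCTG. Of the 10 epithelial genes that rose and have a promoter in the table, 4 hold such letters (DSC2, DSG2, PATJ and GRHL3) and 6 do not (CLDN4, CLDN1, JUP, CLDN7, CLDN3 and CGN). The promoters of the desmosomal cadherins DSC2 and DSG2 are shown as examples of a match, in capitals, chosen after the matches were seen. They are the 250 bases before the RefSeq start on GRCh38.p14, at chr18:31102422-31102671 on the minus strand for DSC2 and chr18:31497927-31498176 on the plus strand for DSG2.
DSC2: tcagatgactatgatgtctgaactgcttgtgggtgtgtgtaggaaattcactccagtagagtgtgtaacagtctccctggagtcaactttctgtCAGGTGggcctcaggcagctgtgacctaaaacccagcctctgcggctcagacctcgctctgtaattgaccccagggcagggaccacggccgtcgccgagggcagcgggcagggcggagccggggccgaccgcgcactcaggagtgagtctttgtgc
DSG2: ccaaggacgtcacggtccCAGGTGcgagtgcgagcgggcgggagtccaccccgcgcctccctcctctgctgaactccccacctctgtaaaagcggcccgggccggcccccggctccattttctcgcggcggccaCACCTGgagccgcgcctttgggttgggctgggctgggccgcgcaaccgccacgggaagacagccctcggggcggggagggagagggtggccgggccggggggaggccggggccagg
The DSC2 match began 156 bases before the start, and those of DSG2 began 232 and 116 bases before it. Of all 27305 promoters of this length given by RefSeq, 17.5% held either form. The share was 15.5% among the 1815 genes called higher that had a promoter there, 13.2% among the 1489 called lower and 17.7% among those not called. At a fold of at least 2 it was 9.24% among 184 genes higher and 17.4% among 230 genes lower. Promoters were found for 18 of the 30 epithelial genes, 9 of them with either form, which is too few for a share of that list to be read. CDH1 and EPCAM were among the genes without a promoter there.

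In each of the 3 cell cycle lists more genes rose than fell, and 35.7% to 44.7% of the members rose. Of 47 mitotic and kinetochore genes 21 rose (44.7%) and 5 fell, with a median of 0.336, and 43 of the 47 were among the brightest 4744 genes, of which 27% were called higher. Kinetochore and checkpoint genes led the rises, with SPC24 (1.23), MAD2L1 (1.11), NDC80 (0.94), BUB3 (0.71) and BUB1 (0.40), beside topoisomerase TOP2A (0.92), AURKA (0.80), CDC20 (0.65) and PLK1 (0.64). CENPF read 9.46, 9.09 and 9.37 with the control mimic and 8.06, 7.78 and 8.14 with miR-520f, a fall of 1.32. The spindle midzone gene PRC1 (-1.05), cyclin B1 (CCNB1, -0.77), CDC25B (-0.55) and PLK4 (-0.39) fell with it.

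Of 44 DNA replication genes 18 rose (40.9%) and 3 fell. The clamp loader subunit RFC1 (1.22), thymidine kinase TK1 (1.06) and primase PRIM1 (0.83) rose most, and the falls were of the helicase genes MCM3 (-0.82), MCM4 (-0.68) and MCM10 (-0.44). Without replicate 1 of the negative control 13 rose and 3 fell, and the number of rises was 10 with an unmoderated fit. Among 28 G1 cyclins, kinases and inhibitors 10 rose and 3 fell. Cyclin E1, CCNE1, read 5.05, 5.01 and 5.10 with the control mimic and 6.72, 6.61 and 6.58 with miR-520f (log2 difference 1.59), and E2F5 (1.33) and CDK6 (1.09) rose. The falls were of the D cyclins CCND2 and CCND1 and of the inhibitor CDKN1A, which read 6.15, 5.61 and 5.31 against 4.91, 4.81 and 4.83. The third D cyclin, CCND3, at -0.43 (limma adjusted p = 0.0522), was not called. Without replicate 1 of the negative control the G1 falls were 5, and an unmoderated fit gave 6 rises.

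Genes that write and remove DNA methylation were among the clearest changes in chromatin genes. DNMT3B, a de novo methyltransferase, read 3.83, 3.76 and 3.91 with the control mimic and 5.70, 5.69 and 5.55 with miR-520f (log2 difference 1.81). The demethylation enzymes TET1 (1.58) and TDG (1.57) rose, as did MBD4 (0.74) and DNMT3A (0.66). UHRF1, which brings the maintenance methyltransferase to replicated DNA, read 5.48, 5.51 and 5.65 against 3.95, 3.89 and 3.99 (-1.60), and that methyltransferase, DNMT1, fell by 0.62. Of 19 such genes 7 rose and 4 fell in all. Of 45 histone-modifying enzymes 15 rose (33.3%) and 3 fell, with KAT6B (1.05), KDM3A (0.83) and EHMT1 (0.70) leading and KMT2A (-0.66), KAT7 (-0.42) and KDM4A (-0.26) falling.

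Of 21 oncofetal and pluripotency genes 5 rose and 0 fell in limma, with 1 lower at an unadjusted p under 0.05 and 0 by the unmoderated fit. Beside NR6A1 they were the zinc finger factor SALL4, from 4.01, 3.88 and 4.20 to 5.66, 5.80 and 5.59 (1.65), the chromatin protein HMGA2 (1.36), the RNA-binding protein IGF2BP1 (0.41) and SALL2 (0.31). The IGF2BP1 call was lost without replicate 1 of miR-520f (limma adjusted p = 0.0543) and with an unmoderated fit. The 16 members not called included many dim probe sets, and the median level of the list was 3.38.

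Several of the largest changes were in genes of membrane traffic, though their lists as a whole were divided. Among 26 SNAREs and fusion regulators 7 rose and 7 fell. VAMP3, the SNARE of recycling endosomes, read 9.88, 9.87 and 9.70 with the control mimic and 7.91, 7.70 and 7.65 with miR-520f (log2 difference -2.06), and VAMP2 fell by 1.12, while STX17 (1.38) and STX12 (1.07) rose. The miR-520f arrays of STX12, at 5.74, 5.70 and 5.74, overlapped the reagent-only arrays, at 5.76, 5.55 and 5.62. Among 32 ESCRT and endosomal sorting genes 7 fell (21.9%) and 4 rose (12.5%). Of the 32, 27 were among the brightest 4744 genes, of which 21.1% were called lower and 27% higher. The share of falls was thus close to that of bright genes. CHMP3, a subunit of the membrane-cutting ESCRT-III complex, read 9.56, 9.55 and 9.47 against 7.69, 7.49 and 7.63 (-1.93), and CHMP4C (-1.22), VPS26A (-1.002) and STAM2 (-0.98) fell. The control mimic and miR-520f arrays did not overlap for VAMP3 or CHMP3. The 4 rises of the ESCRT list became 7 without replicate 3 of the negative control.

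Among 40 phosphoinositide kinases and phosphatases 9 rose and 9 fell. OCRL fell by 2.17, from 8.10, 8.13 and 8.26 to 5.92, 6.11 and 5.93, and the kinase gene PIK3CB fell too (-1.004), while the kinases PIP4K2A (1.38) and PIP4K2B (1.33) rose. The miR-520f arrays of PIP4K2A, at 6.80, 6.68 and 6.61, overlapped the reagent-only arrays, at 6.71, 6.69 and 6.49. Of 25 lysosomal genes 6 rose, led by the cathepsin CTSV (1.80), and 5 fell, led by the membrane protein SCARB2 (-0.75). Among 48 Rab GTPases 12 rose, with RAB39A at 1.49, and 9 fell, with RAB22A at -1.20. Without replicate 2 of miR-520f 5 Rab genes fell, and without replicate 2 of the negative control 3 lysosomal genes did.

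The silencing machinery itself changed in parts. Of 32 genes 11 fell (34.4%) and 8 rose (25%). Of the 32, 25 were among the brightest 4744 genes, of which 27% were called higher and 21.1% lower. The deadenylase CNOT6 read 7.23, 7.15 and 7.13 with the control mimic and 5.20, 5.16 and 5.44 with miR-520f (log2 difference -1.90), and DICER1, PAN3 (-1.03), TNRC6B (-0.73), AGO4 (-0.68) and TNRC6A (-0.67) fell. The deadenylase CNOT7 (1.35), the decapping enzyme DCP2 (1.13) and the Argonaute AGO2 (0.53) rose. Against the control mimic, CNOT6 and CNOT7, both deadenylases of the CCR4-NOT complex, thus moved in opposite directions. The CNOT6 arrays were tightly grouped, and the control mimic arrays of CNOT7 spread from 4.92 to 6.04. The reagent-only arrays of CNOT6, at 6.42, 6.44 and 6.45, lay between the mimics. Those of CNOT7, at 6.52, 6.48 and 6.64, lay above the control mimic, and its miR-520f arrays read 6.83, 6.89 and 7.08. The 8 rises became 5 without replicate 1 of the negative control or without replicate 1 or 2 of miR-520f.

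Purine genes fell more often than they rose, with 7 falls and 1 rise among 23. NT5E, the surface enzyme that makes adenosine, read 10.54, 10.47 and 10.49 with the control mimic and 8.53, 8.36 and 8.68 with miR-520f (log2 difference -1.98). The purine nucleoside phosphorylase PNP (-1.28), the deaminases AMPD3 (-1.10) and AMPD2 (-0.52), IMPDH2 (-0.71) and adenosine kinase ADK (-0.36) fell beside HPRT1, and NT5C2 rose by 0.57. The falls on this list were of salvage and breakdown enzymes and IMPDH2.

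Of 25 genes of cholesterol and fatty acid synthesis 10 fell (40%) and 4 rose, with a median of -0.07. Of the 25, 21 were among the brightest 4744 genes, of which 21.1% were called lower. The changes were small, with SC5D (-0.69), STARD4 (-0.66), MSMO1 (-0.65) and INSIG1 (-0.55) falling most, and the number of falls was 6 without replicate 2 or 3 of the negative control or replicate 2 of miR-520f, and 5 with an unmoderated fit. The reagent-only arrays of INSIG1, at 6.35, 6.14 and 6.26, lay below the control mimic arrays, at 7.33, 6.89 and 6.89, and the miR-520f arrays read 6.62, 6.23 and 6.59. Of 27 glycolysis and hypoxia genes 5 rose and 5 fell. The peptide hormone gene ADM rose by 1.82 and HIF1A by 0.81, while the glucose transporter SLC2A1 (-0.85) and hexokinase HK2 (-0.77) fell. These rises were 3 without replicate 2 of miR-520f, and the cholesterol list had 2 rises without replicate 1 or 2 of miR-520f.

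The clock, mTOR and Mediator lists each held 1 of the 30 largest changes. Of 21 circadian genes 6 fell and 5 rose, with CLOCK (-1.14) and NR1D2 (-1.03) falling beside NPAS2, and PER2 (1.04), DBP (0.89) and CRY2 (0.86) rising. Of 30 mTOR genes 10 rose and 6 fell. Besides DEPTOR, the complex subunits MAPKAP1 (1.16) and RPTOR (1.11) rose and the small GTPase RRAGD fell by 1.09. For MAPKAP1 and RPTOR, however, the control mimic arrays lay below the reagent-only arrays. MAPKAP1 read 8.06, 8.14 and 8.05 with the reagent alone and 6.80, 7.18 and 7.12 with the control mimic. With miR-520f it read 8.16, 8.24 and 8.19. RPTOR read 6.61, 6.69 and 6.46 with the reagent alone and 5.58, 5.70 and 5.64 with the control mimic. Its miR-520f arrays, at 6.71, 6.88 and 6.66, overlapped the reagent-only arrays. Of 28 Mediator subunits 6 rose and 5 fell. CDK8 went from 5.97, 6.38 and 6.33 to 8.06, 8.20 and 8.15, and its partner cyclin C, CCNC, rose by 1.37, while CDK19, the paralog of CDK8, fell by 0.996. CDK8 and CDK19 are named together for their relation, a choice made after their values were seen. The clock rises were 3 without replicate 1 of miR-520f, and the Mediator falls 3 without its replicate 2 or 3.

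Interferon response genes fell more often than they rose, with 16 falls (35.6%) and 5 rises among 45. PARP14 (-1.44), PARP9 (-0.41) with its partner DTX3L (-1.16), the antigen-processing genes TAP1 (-1.35) and PSMB8 (-1.11) and the factors IRF1 (-0.58) and IRF9 (-0.45) fell. TAP1 read 6.73, 6.59 and 6.42 with the control mimic and 5.28, 5.18 and 5.23 with miR-520f. IFIT1 rose against the control mimic, as described above, as did the RNA sensor RIGI (0.92), ADAR (0.43), ISG15 (0.36) and IRF7 (0.31). The rises were 3 without replicate 1 or 2 of miR-520f. Of 45 TRIM ligases 9 fell, led by TRIM8 (-1.02), and 2 rose.

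Of 22 p53-related genes 11 fell (50%) and 4 rose, with a median of -0.258. The translesion polymerase POLH (-1.06), the death receptor FAS (-0.86), CDKN1A (-0.83), GADD45B (-0.73) and GADD45A (-0.67) fell, and TP53INP1 (1.32), SESN1 (0.78), MDM2 (0.60) and TIGAR (0.31) rose. Among 33 apoptosis regulators 8 fell, with AREL1, CASP8 (-0.98) and TNFRSF10B (-0.84) among them, and 7 rose. The pore-forming BAK1 went from 5.50, 5.55 and 5.13 to 6.93, 6.79 and 6.68 (1.41). Death receptor genes and the mitochondrial executioner BAK1 thus moved in opposite directions.

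Of 42 receptor tyrosine kinases 7 fell and 6 rose. AXL (-2.04), EPHA2 (-0.97) and EGFR (-0.68) fell, and MET, PTK7 (1.22) and ERBB2 (0.83) rose. Of 22 Hippo and YAP genes 6 fell and 6 rose, with the upstream genes NF2 (-1.04) and STK4 (-0.93) and the output gene CCN1 (-0.85) falling and the kinase MAP4K4 rising by 0.87. The miR-520f arrays of CCN1, at 9.999, 9.91 and 10.03, overlapped the reagent-only arrays, at 10.5, 10.07 and 9.96. Its control mimic arrays, at 10.91, 10.84 and 10.74, lay above both. The Hippo rises were 3 without replicate 1 or 2 of miR-520f. Of 20 DUSP phosphatases 3 fell and 4 rose.

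Stress and folding genes were divided. Of 19 endoplasmic reticulum chaperones and sensors 7 rose and 2 fell, with PDIA4 (1.47), DNAJC3 (1.46), SEL1L (0.79) and the sensor ERN1 (0.74) leading. Of the 19, 15 were among the brightest 4744 genes, of which 27% were called higher. PDIA4 read 8.25, 7.94 and 8.05 with the reagent alone, 6.65, 7.10 and 6.48 with the control mimic and 8.29, 8.03 and 8.31 with miR-520f, so its miR-520f arrays overlapped the reagent-only arrays. Those of SEL1L, at 7.52, 7.55 and 7.64, also overlapped its reagent-only arrays, at 7.62, 7.66 and 7.60. Of 26 genes of the integrated stress response and serine synthesis 6 rose, led by NUPR1 (0.91) and STC2 (0.86), and 5 fell, led by ATF5 (-0.82). Of 52 heat shock genes 11 rose and 6 fell, with HSPA4L (-1.77) and DNAJC13 (-1.58) falling most. Of 16 histone regulators and variants 5 fell, led by MACROH2A1 (-1.46) and ASF1B (-1.19), and 2 rose. Leaving out replicate 1 of miR-520f lowered the falls among the stress response genes and among the histone genes to 3, as did leaving out its replicate 2 or 3 for the former, and without replicate 3 of the negative control the chaperone falls were 4.

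In the gene families the largest one-sided counts were among zinc finger and helicase genes. Of 305 numbered zinc finger genes 67 rose (22%) and 30 fell, led by ZNF680 (1.43), ZNF738 (1.42), ZNF92 (1.40) and ZNF254 (1.34). Zinc finger genes are often near-identical copies, so probes may read several of them. Of 42 DEAD and DEAH box helicases 12 rose, led by DDX10 (1.21), and 3 fell. DDX10 read 8.19, 8.28 and 8.17 with the reagent alone, 6.87, 7.43 and 7.44 with the control mimic and 8.44, 8.34 and 8.61 with miR-520f. Of 65 mitochondrial ribosomal proteins 12 rose and 10 fell, and MRPS35 alone among them fell by more than 2 on the log2 scale, from 9.33, 9.36 and 9.49 to 7.39, 7.27 and 7.41. The other falls of that family were less stable, with 5 falls in all without replicate 1 of miR-520f and 6 without its replicate 2.

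Other families had few calls or moved in both directions. Of 30 cytosolic ribosomal proteins 4 rose and 2 fell, of 29 proteasome subunits 4 rose and 2 fell, and of 26 complex I subunits 4 rose and 0 fell in limma, with 4 lower at an unadjusted p under 0.05 and 0 by the unmoderated fit. Of 301 solute carriers 39 rose and 41 fell, with SLC12A7 (-1.71) and SLC36A1 (1.32) at the ends, and of 39 ABC transporters 4 rose and 3 fell, with the drug transporter ABCC3 at -1.85. Of 37 ubiquitin-specific proteases 11 rose (29.7%) and 9 fell (24.3%), and of 30 kinesins 6 rose (20%) and 5 fell (16.7%). Among 18 nucleoporins, and likewise among 18 aminoacyl-tRNA synthetases, 6 rose (33.3%) and 3 fell (16.7%). Of 13 autophagy genes 5 rose (38.5%) and 2 fell (15.4%), where ATG7 fell by 1.16. The brightest 4744 genes, of which 27% were called higher and 21.1% lower, held 26 of these proteases and 16 of the kinesins. They also held 16 of the nucleoporins, 18 of the synthetases and 5 of the autophagy genes. These small families moved with single arrays: over the left-out arrays 3 to 6 nucleoporins, 3 to 6 synthetases and 3 to 5 autophagy genes rose and 3 to 5 kinesins fell, and ribosomal proteins, complex I subunits and ABC transporters had as few as 2 rises. Of 31 chemokines limma called 0, with 5 lower at an unadjusted p under 0.05 and 0 by the unmoderated fit. Of 220 olfactory receptors, which are dim and serve as a reference, limma called 2 lower and 0 higher, with 0 higher at an unadjusted p under 0.05 and 1 by the unmoderated fit. Among markers of other cell types the macrophage and lysosome gene CD68 fell by 0.90 and THY1 rose by 0.89, and CD8A fell by 0.33. Of the 15 acinar and endocrine genes limma called 0, with 2 lower at an unadjusted p under 0.05 and 0 by the unmoderated fit. The part of other cell types in any list was not tested.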

How the data were processed

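Affymetrix arrays of PANC-1 total RNA were analysed from the authors' deposited table of log2 intensities. Partek 6.6, RMA and the human build hg18 are named per the submitters' processing notes, without settings. The RMA log2 values were normalized between arrays by the authors, so no array was scaled again in the main analysis. Probe sets with several symbols (2408) or without a name here (5171) were left out of the gene lists. Entrez identifiers matched 14404 single-symbol probe sets to a GRCh38.p14 gene table.

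Groups came from the labels. A limma model (limma 3.58.1, R 4.3.3) with a mean per group over all 9 arrays and 6 residual degrees of freedom was contrasted, with p adjusted over 14232 genes. It was tested on simulated data. By the design text of the series the study itself ran ANOVA in Partek, which an unmoderated fit stood for among the alternatives. Named genes are the 15 largest changes each way, up to 4 called members of each list by size, and a few fixed names. The 15 each way were taken among called genes whose miR-520f and negative control arrays did not overlap. Further members are named where a list is given in full. The members, lists and rules were chosen with earlier results of these data known. GAPDH was not analysed here.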

Additional observations from a re-analysis of the deposited data

Results flagged for a closer look

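Probe sets left out of the gene comparisons also differed between the mimics. Of 2408 probe sets with several gene symbols limma called 496 (20.6%), 286 higher and 210 lower with miR-520f, with log2 differences from -1.98 to 3.45. Of 5171 probe sets without a name here it called 410 (7.93%), 172 higher and 238 lower, from -2.51 to 1.86. These stand out because they lie outside the genes described, and their identity was not examined.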

How the results depend on the processing

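Counts of called genes, over both directions and for each, stayed within 1.5 times of the main ones under the 17 alternatives (8 settings and 9 left-out arrays), and so did the counts at a fold of at least 2. The called genes were 3115 with an unmoderated fit, 3759 with only the 6 arrays compared, 4073 after a further quantile normalization and 3969 with arrays centred on the median. Leaving out an array gave 3197 to 4037, the lowest without replicate 1 of miR-520f. Rises made up 52.5% to 58.4% of the calls over the settings. A replicate block gave 4159 calls; the replicate numbers were not taken as pairing the arrays, since deviations of same-numbered arrays correlated at -0.03 to 0.205. Of 227 called named genes 20 lost the call under at least 1 alternative and 0 changed direction. For 197 genes with more than 1 probe set, 18 had more than 1 called, 1 of them with opposite signs. Signal over background was not analysed here, so dim genes have no detection call, and RMA compression limits their differences. The list counts without single arrays were added after seeing the data.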
